A study of Sminthopsis crassicaudata with 9 samples.

Results

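Bone morphogenetic protein (BMP) signalling was examined through 10 named genes in the newborn face of the fat-tailed dunnart (*Sminthopsis crassicaudata*), a small carnivorous marsupial. The genes were the ligands BMP2, BMP4, BMP5 and BMP7, the secreted antagonists NOG, GREM1 and CHRD, the type I receptors BMPR1A and BMPR1B, and the type II receptor BMPR2. They were chosen by symbol for their place in the pathway, and 9 of the 10 had a gene model among the 21703 models of the count table. No model there carries the symbol GREM1, which was not analysed here. In the RefSeq annotation of another dunnart assembly (ASM4859323v1) GREM1 lies between FMN1 and SCG5, and neither of these symbols is in the count table. The symbols RYR3, ARHGAP11A and GJD2, further out on either side, are also absent from it. Whether the models alone or the whole region is missing was not tested.

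Tissue came from the fronto-nasal, maxillary and mandibular prominences of young on the day of birth (less than 24 h old), after the tongue, neural tube and eye primordia had been taken away. ChIP-seq was performed for H3K4me3, a histone mark of active promoters, and for H3K27ac, a mark found at active enhancers as well, in 2 replicates each. Replicate 1 was a pool of 26 heads and replicate 2 a pool of 27 heads, and each pool also gave the input DNA against which its peaks were called. These pool sizes are those of the sample labels, and the study's methods give a smaller total of young. RNA was sequenced in 3 libraries, each a pool of 2 young, which carry the names FP1, FP2 and FP3 in the count table. All samples were of 1 species, tissue and age, with no treatment or genotype to compare, so levels are described and no test between groups was made.

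BMPs are secreted proteins of the TGF-beta superfamily that bind a complex of type I and type II serine/threonine kinase receptors. The type II receptor activates the type I receptor, which phosphorylates SMAD1, SMAD5 and SMAD9, and these enter the nucleus with SMAD4 and act on target genes such as the ID family. Noggin (NOG), gremlin (GREM1) and chordin (CHRD) bind the ligands outside the cell and keep them from the receptors, and in vertebrate embryos this balance is known to act on outgrowth of the facial prominences and on the facial skeleton, palate and teeth.

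Library totals ran from 16096971 to 17419099 counts. All 5 markers of facial mesenchyme passed 1 TPM (a count scaled by transcript length and library total) in every library, as did the 4 surface epithelium markers that had a model, with KRT14, a basal keratin, as the most abundant. Muscle (MYOD1, MYOG), vessel (CDH5, KDR) and cartilage (SOX9, COL2A1) markers were also expressed. MYF5 of the muscle list (0.614 to 1.6 TPM) and ACAN of the cartilage list (0.955 to 6.1) did not pass in every library. Of the brain and eye lists 1 gene of 3 each passed (EMX2 and CRYAA). NKX2-5, listed for heart, gave 70.3 to 163 TPM. The bulk libraries hold all of these cells together, so fewer cells of a type and less RNA per cell cannot be told apart. A gene was called expressed where it exceeded 1 TPM in all 3 libraries, which held for 9 of the 9 members and for 56.5% of the 21692 genes with counts. Among genes with a symbol the share was 75.3%.

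BMP7 and BMP2 were the most abundant of the BMP members. BMP7, a ligand known from kidney, eye and craniofacial development, gave 26.2 TPM in FP1, 29.0 in FP2 and 24.3 in FP3, a mean of 26.5 ± 2.38 (SD, n = 3). This was at the 75.8 percentile of all genes and above 20.6 TPM, the median of the expressed genes. Its coefficient of variation (CV) was 8.95%, where counting alone would give 3.48%, and the highest library was 1.19 times the lowest. BMP2, a ligand known for inducing bone and cartilage, gave 19.4, 28.3 and 19.5 TPM in FP1, FP2 and FP3, a mean of 22.4 ± 5.11 (SD, n = 3). FP2 stood above FP1 and FP3, and the libraries of BMP7 and BMP2 overlapped.

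BMP4, a close relative of BMP2 that is expressed in facial epithelium and mesenchyme of other vertebrates, was lower, at 7.83, 10.6 and 6.53 TPM in FP1, FP2 and FP3 (8.33 ± 2.09, SD, n = 3). All of its libraries lay below the lowest library of BMP2, at 19.4 TPM. BMP5, known from the skeletal and ear phenotype of the short-ear mouse, gave 3.62, 5.67 and 2.46 TPM (3.92 ± 1.63, SD, n = 3) and rested on 371 counts in all. It was the lowest of the 4 ligands in every library. Together the 4 ligands summed to 57.1 TPM in FP1, 73.6 in FP2 and 52.8 in FP3, and BMP7 supplied 43.4% of their summed mean.

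The antagonists were nearly level with each other. CHRD gave 7.61, 8.53 and 6.51 TPM in FP1, FP2 and FP3 (7.55 ± 1.01, SD, n = 3). NOG gave 7.5, 6.51 and 7.91 TPM (7.31 ± 0.718, SD, n = 3) from 56, 40 and 53 counts, its model being a single exon of 823 bases. The CV of NOG was 9.83%, below the 14.2% that counting gives at this depth, but after TMM scaling (a scaling by the bulk of genes) its levels were 7.73, 5.63 and 8.73 with a CV of 21.5%. The summed level of both antagonists was 15.1, 15.0 and 14.4 TPM in FP1, FP2 and FP3, without GREM1. In each library the ligand sum was above that of NOG and CHRD, with the lowest ligand sum at 52.8 TPM. Other listed antagonists are not in this sum. SOSTDC1 alone gave 88.0, 107 and 83.5 TPM in FP1, FP2 and FP3, above the ligand sum of each library.

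The receptors showed the widest spread between libraries. BMPR1A, a type I receptor, gave 8.93 TPM in FP1, 24.1 in FP2 and 14.0 in FP3 (15.7 ± 7.72, SD, n = 3). BMPR2, the type II receptor that pairs with it, gave 8.34, 23.4 and 15.2 TPM (15.7 ± 7.56, SD, n = 3). Both were highest in FP2 and lowest in FP1, with a highest to lowest ratio of 2.7 for BMPR1A and 2.81 for BMPR2. BMPR1B, the other type I receptor among the members, known for its part in digit cartilage, gave 2.84, 4.43 and 1.83 TPM (3.03 ± 1.31, SD, n = 3) from 183 counts in all. BMPR1B was below BMPR1A in every library, and BMPR1A supplied 83.8% of the level of BMPR1A and BMPR1B together. ACVR1, also a type I receptor, was at 17.9 TPM and ACVRL1 at 9.93, and neither was part of this share.

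**Figure D1:**
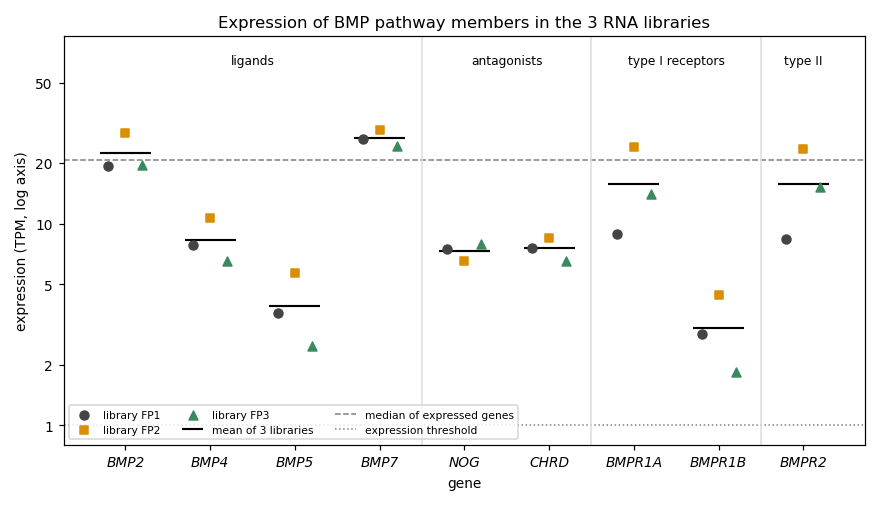
TPM on a log axis for the 9 members, grouped by role, with 1 point for each RNA library, a bar for the mean of the 3 libraries, a dashed line at the median of expressed genes (20.6 TPM) and a dotted line at 1 TPM. All points lie above 1 TPM, BMP7 lies above the dashed line in every library, and BMPR1A and BMPR2 run from below 10 TPM in FP1 to above the dashed line in FP2.

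In order of mean level the members ran BMP7, BMP2, BMPR1A, BMPR2, BMP4, CHRD, NOG, BMP5 and BMPR1B. Of the 8 pairs of neighbours in this order, only NOG and BMP5 had library ranges that did not overlap, with the lowest library of NOG at 6.51 TPM and the highest of BMP5 at 5.67. Compared within libraries, 6 of the 8 pairs kept their order in all 3 libraries, the exceptions being BMPR1A with BMPR2 and CHRD with NOG. Without FP2, NOG (7.71 TPM) came before BMP4 (7.18) and CHRD (7.06). Without FP1 or without FP2, BMPR2 came before BMPR1A. The median over the members was 8.33 TPM, between the 3.83 TPM of all genes and the 20.6 TPM of expressed genes.

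The spread between libraries did not fall evenly on the members, and it depended on scaling. BMP5, BMPR1A, BMPR1B and BMPR2 had a highest library over 2 times the lowest, which makes 4 of 9, against 19.2% of the 12201 genes with 100 counts or more. After TMM scaling BMPR1A (2.27) and BMPR2 (2.36) were over 2 and BMP5 (1.81) and BMPR1B (1.89) were not, 2 of 9 against 14.2% of genes. Without FP2 none of the 9 exceeded 2, and without FP1 or without FP3 2 of 9 did. FP2 was the highest library for 8 of 9 members (all but NOG) and for 62.1% of genes, and after TMM scaling for 6 of 9 members and 32.0% of genes.

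Cell type markers also moved between these libraries. The summed cartilage markers were 49.5 TPM in FP1, 116 in FP2 and 46.2 in FP3, with COL2A1 at 36.4, 90.9 and 27.6. The lists did not move as one. The summed epithelial markers were lowest in FP2, at 4550, 3190 and 6060 TPM in FP1, FP2 and FP3, which was nearly all KRT14. EPCAM was highest in FP2 (43.1, 69.5 and 60.5), TP63 lowest in FP1 (28.2, 70.2 and 73.3) and KRT18 highest in FP1 (103, 85.6 and 81.9). Of the mesenchymal markers PRRX1 (32.5, 57.1 and 27.3), ALX4 (11.1, 18.4 and 8.34) and PDGFRA (22.1, 48.3 and 27.3) were highest in FP2, and TWIST1 (359, 285 and 217), which carried most of the sum of 532, 493 and 389 TPM, was highest in FP1. The part of cell mixture in the receptor values was not tested.

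Reproducible peaks, those found in both replicates at a q-value under 0.05 with a shared stretch of 50% or more of one of the paired peaks, were then placed around the annotated transcription start site (TSS) of each member. Their edges, lengths, counts and overlaps with the other mark are those of the replicate 1 peaks. A single peak of replicate 2 can be the partner of several peaks of replicate 1. H3K4me3 lay within 1 kb of the TSS for 8 of 9 members, against 67.7% of all gene models and 83.1% of models with a symbol. H3K27ac did so for the same 8, against 71.5% and 85.9%. Both marks were present for 8 of 9, against 66.3% of all models and 82.1% of models with a symbol. The exception was BMP5. At q under 1e-05 H3K4me3 remained for 7 of 9 members and H3K27ac for 8. Each mark covered the TSS itself in 7 of 9. Shares of all genes were not computed for these stricter settings. Enrichment is given below as fold over input in replicate 1 and replicate 2. The peak lists give no read counts, so the depth behind each fold could not be read from them.

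The receptors BMPR1A and BMPR2 had the strongest start sites of the group. BMPR1A lay on scaffold00002 of the study's dunnart assembly, from 151136059 to 151244896 on the plus strand. Its TSS was covered by an H3K4me3 peak of 4577 bases (73.5 and 91.9-fold) and by an H3K27ac peak of 4645 bases (83.4 and 76.0-fold). Among genes with such a peak these were at the 91.3 and 99.2 percentile of enrichment. BMPR2 lay on scaffold00001 from 31293341 to 31499457 on the minus strand, with H3K4me3 of 89.5 and 87.1-fold over 4077 bases and H3K27ac of 59.7 and 54.9-fold over 3816 bases. These were at the 94.6 and 93.6 percentile. The start of another model, LOC116422243, lay 1.33 kb upstream, and the BMPR2 peaks also covered an exon of it, so the marks of these starts cannot be told apart.

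BMPR1B was at the other end. On scaffold00122, from 2939766 to 3140904 on the plus strand, its TSS carried H3K4me3 at only 4.16 and 4.4-fold over 1044 bases, the 5.48 percentile of marked starts. H3K27ac there was 11.7 and 7.31-fold, the 26.5 percentile. Taking the strongest peak of each mark within 1 kb and the mean of both replicates, BMPR1B was the only member where H3K27ac enrichment exceeded that of H3K4me3, by a ratio of 2.22 against a median of 0.633 over all genes. In replicate 1 alone this was also so for BMPR1A. A stronger region lay 66.8 kb downstream, over an exon of BMPR1B, with H3K4me3 of 10.8 and 12.3-fold and H3K27ac of 16.7 and 17.0-fold. Among peaks over 3 kb from any TSS that H3K27ac peak was at the 97.7 percentile. The gene models were transferred from the Tasmanian devil, and whether a transcript starts at that exon was not tested.

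Of the ligands, BMP2 had the broadest and strongest start. It lay on scaffold00035 from 2233477 to 2248588 on the minus strand, and its H3K4me3 peak covered 5570 bases, the 88.9 percentile of length, with 53.2 and 52.4-fold enrichment. H3K27ac over the TSS was 30.2 and 26.1-fold over 3300 bases. BMP4, on scaffold00002 from 376796713 to 376801435 on the minus strand, had H3K4me3 of 34.1 and 40.7-fold over 2644 bases and H3K27ac of 24.7 and 28.8-fold over 2234 bases. Both marks of BMP4 were near the medians of all marked starts in length, which were 2498 bases for H3K4me3 and 2262 for H3K27ac.

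BMP7 was the most abundant ligand, but its marks were below the medians of 43.4-fold for H3K4me3 and 23.4-fold for H3K27ac. It lay on scaffold00044 from 3184243 to 3283299 on the plus strand. No reproducible peak covered the annotated TSS. H3K4me3 began 93 bases downstream (26.1 and 33.6-fold, 1645 bases) and a weaker peak ended 622 bases upstream (9.28 and 7.39-fold). H3K27ac had the same arrangement, at 198 bases downstream (15.6 and 18.6-fold) and 521 bases upstream (10.9 and 9.33-fold).

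BMP5 had no peak of either mark within 1 kb of its annotated TSS, in either replicate alone. The gene lay on scaffold00058 from 8093490 to 8259634 on the minus strand. The nearest H3K27ac lay in an intron 16.7 kb from the TSS, at 3.9 and 4.4-fold. The nearest H3K4me3 was 64.7 kb away in replicate 1 and 32.0 kb away in replicate 2. BMP5 was nevertheless above 1 TPM in every library, with its lowest at 2.46.

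The antagonist NOG had the longest H3K4me3 domain of the members. The gene lay on scaffold00017 from 16548573 to 16549395 on the plus strand, and H3K4me3 covered 6617 bases, 1951 upstream and 4665 downstream, so that it took in the whole single-exon model. This was the 92.0 percentile of length, while the enrichment of 43.5 and 52.2-fold was at the 54.8 percentile. H3K27ac was split into a peak of 2797 bases over the TSS (15.4 and 17.1-fold) and one of 3463 bases that began 1.39 kb downstream (12.0 and 12.6-fold). NOG had the lowest ratio of H3K27ac to H3K4me3 enrichment of the 8 marked members, at 0.339.

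CHRD lay on scaffold00002 from 176505080 to 176519177 on the plus strand, with the start of THPO 929 bases away. Its TSS was covered by a weak H3K4me3 peak (4.01 and 4.24-fold) and a stronger H3K27ac peak (7.57 and 12.6-fold) that also covered an exon of THPO, and the strongest H3K4me3 peak began 799 bases downstream over an exon, at 30.2 and 41.4-fold. H3K27ac was also strongest there, at 17.5 and 19.9-fold. Further H3K4me3 peaks lay over exons of CHRD at 3.45 kb (12.6 and 16.3-fold) and 8.92 kb (14.4 and 17.0-fold). Among H3K4me3 peaks over 3 kb from any TSS these were at the 96.2 and 96.5 percentile.

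**Figure D2:**
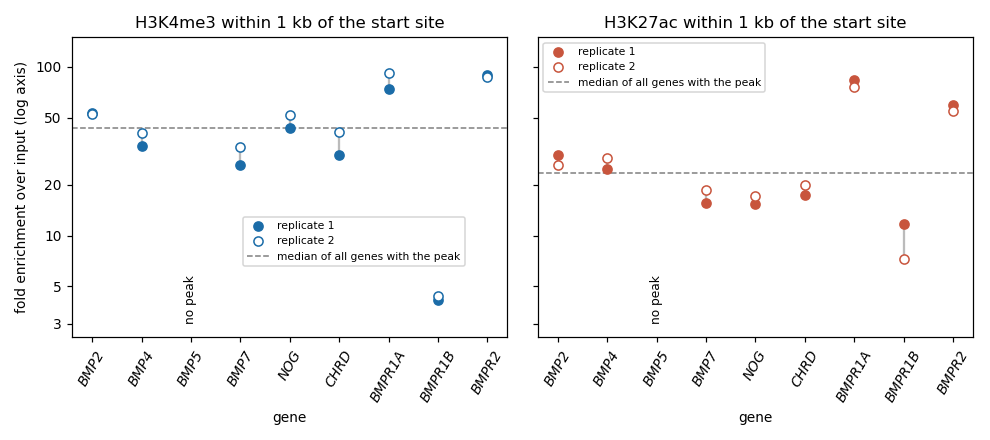
Fold enrichment over input (log axis) of the strongest reproducible H3K4me3 peak (left) and H3K27ac peak (right) within 1 kb of the TSS of each member, with replicate 1 filled, replicate 2 open, and the median of all genes with the peak as a dashed line. BMPR1A and BMPR2 stand above the dashed line in both panels and both replicates, BMPR1B stands far below it at 4.16 and 4.4-fold for H3K4me3, and BMP5 has no peak.

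Enrichment at the start and RNA level did not rank the members alike. BMP7 had the highest TPM and the 36.2 percentile of H3K4me3 enrichment. BMPR1A and BMPR2, with the 91.3 and 94.6 percentile of H3K4me3, were at the 67.4 and 67.3 percentile of TPM. BMPR1B was the lowest of the marked members in both, at the 48.0 percentile of TPM. The H3K4me3 percentiles are among genes with a peak within 1 kb and the TPM percentiles among all genes with counts. The 2 percentiles are therefore not on the same scale.

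**Figure D3:**
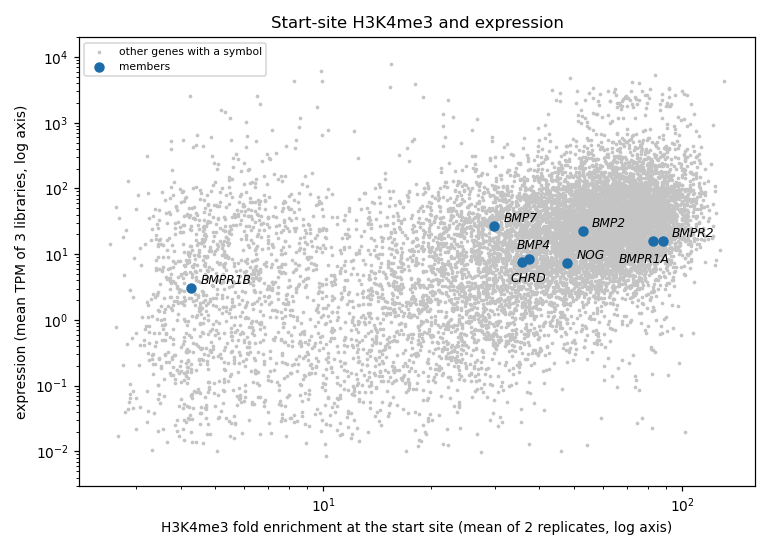
Mean TPM of 3 libraries against mean H3K4me3 fold enrichment at the TSS, both on log axes, for 11296 genes with a symbol and an H3K4me3 peak within 1 kb of the TSS (473 more at 0 TPM are not drawn), with the 8 marked members in blue. The members lie inside the cloud of other genes, with BMPR1B alone at low H3K4me3 and BMP7 highest in TPM.

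Within 200 kb on either side of the TSS the windows of the 9 members held 187 reproducible H3K4me3 peaks and 282 H3K27ac peaks, of which 113 shared no base with H3K4me3 (here H3K27ac-only, the usual signature of an enhancer). A window held a median of 16 H3K27ac peaks over the members and 27 over all genes, and a median of 9 H3K27ac-only peaks against 11. All 9 members had at least 1 H3K27ac-only peak in the window, as did 97.7% of genes. Counting only peaks whose nearest TSS was that of the member left 107 H3K27ac peaks, 41 of them H3K27ac-only. An H3K27ac-only peak was weak on the whole, with a median of 4.22-fold and 489 bases over the genome.

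BMPR1A had the most H3K27ac peaks in its window, 97 (97.8 percentile of genes), of which 49 were H3K27ac-only (99.7 percentile), and 49 H3K4me3 peaks (81.4 percentile). Of the 97, however, 42 lay in the body of LDB3, a gene of the muscle Z-disc, and 19 in that of MMRN2, a gene of vessel walls. For 31 of the 97 the nearest TSS was that of BMPR1A, and for 15 of the 49. The 3 strongest H3K27ac-only peaks were 145 kb downstream in an intron of MMRN2 (8.31 and 5.69-fold), 95.8 kb downstream in an intron of BMPR1A (6.19 and 7.06-fold) and 95.5 kb upstream over an exon of LDB3 (7.08 and 6.05-fold). Inside BMPR1A the strongest distal H3K27ac peak lay in an intron at 72.0 kb, with 10.9 and 11.7-fold enrichment and H3K4me3 over it.

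CHRD had the most H3K4me3 peaks, 68 (91.9 percentile), and 79 H3K27ac peaks (91.6 percentile), and 15 other TSSs lay within it, among them those of THPO, POLR2H, EIF4G1, PSMD2 and EPHB3. The nearest TSS was that of CHRD for 5 of the 79 H3K27ac peaks and for none of the 17 H3K27ac-only peaks. A pair of these had enrichments far apart, 3.2 and 37.1-fold (141 kb downstream) and 4.92 and 23.7-fold (149 kb upstream, in an intron of VWA5B2). The pairing rule allows a short peak to be matched to a broader one, and why these enrichments differ was not tested. The strongest with like replicates lay 177 kb downstream, at 6.77 and 6.0-fold.

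NOG stood in open ground, with neighbouring starts 426 kb upstream and 304 kb downstream and no other TSS in the window. It held 28 H3K27ac peaks, 14 of them H3K27ac-only, close to the genome median. The strongest distal region lay 132 kb downstream between genes and carried both marks, with H3K4me3 at 9.12 and 13.1-fold and H3K27ac at 11.5 and 12.3-fold. Upstream, a region 90.8 kb away had H3K27ac of 13.2 and 8.97-fold. The strongest H3K27ac-only peaks were 12.6 kb upstream (5.76 and 6.81-fold), 107 kb upstream over an exon of ANKFN1 (4.89 and 7.16-fold) and 199 kb downstream (3.76 and 6.38-fold).

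BMP7 held 25 H3K27ac peaks, and 10 of them lay in its own body beyond 1 kb of the TSS. Between 46.0 and 64.6 kb downstream, in introns of BMP7, a run of peaks carried H3K27ac of up to 8.35-fold in a replicate, and most of these shared their bases with H3K4me3. The strongest of the run were at 46.0 kb (6.98 and 8.35-fold), 62.7 kb (6.96 and 7.81-fold) and 53.5 kb (7.57 and 7.11-fold). The strongest H3K27ac-only peak lay over an exon at 96.9 kb (7.13 and 4.02-fold), followed by those at 69.1 kb in an intron (3.9 and 6.36-fold) and 199 kb upstream in an intron of RBM38 (4.71 and 4.61-fold). RBM38, RAE1 and SPO11 were the other genes that started in the window. The strongest region over 3 kb from any TSS lay 162 kb upstream between genes, nearest to RBM38, with H3K4me3 of 15.5 and 20.4-fold and H3K27ac of 16.4 and 13.8-fold.

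BMP4 held 13 peaks of each mark, all but those at its start and gene end between genes. The region 6.85 kb downstream of the TSS, beyond the gene's end, was the strongest, with H3K4me3 of 11.1 and 10.8-fold and H3K27ac of 12.9 and 14.2-fold, the 95.1 and 96.7 percentile of peaks over 3 kb from any TSS. A region over an exon at 2.72 kb had H3K27ac of 7.54 and 7.06-fold. The strongest of its 5 H3K27ac-only peaks lay 97.1 kb downstream (6.19 and 5.38-fold), and those at 149 and 109 kb were at 4.12 and 2.69-fold and at 3.98 and 2.77-fold. Only 1 of the 5 had BMP4 as its nearest TSS, and the other 4 were nearer to LOC111719595.

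BMP2 had the emptiest window, with 5 H3K27ac and 4 H3K4me3 peaks, the 9.49 and 12.1 percentile of genes. No other gene started in it, and the nearest upstream start was 411 kb away. Its sole H3K27ac-only peak lay 123 kb upstream between genes, at 4.03 and 3.03-fold, and the strongest distal H3K4me3 peak lay 161 kb downstream, at 6.47 and 4.89-fold. The start of BMP2 thus had few marked regions around it. This start was the strongest of the ligands, at the 60.5 percentile of H3K4me3 enrichment among marked starts and the 57.8 percentile for H3K27ac.

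BMP5 held 7 H3K27ac peaks and 6 H3K4me3 peaks, all nearest to its own TSS. Of 4 H3K27ac-only peaks, 3 lay in its introns, at 144 kb (3.01 and 7.59-fold), 135 kb (4.54 and 4.03-fold) and 16.7 kb (3.9 and 4.4-fold). An intronic region at 106 kb carried both marks, with H3K4me3 of 3.78 and 5.22-fold and H3K27ac of 5.01 and 3.78-fold. The strongest distal H3K4me3 peak, in an intron at 64.7 kb, differed between the replicates (3.32 and 8.81-fold).

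BMPR1B held 12 peaks of each mark, all nearest to its own TSS, and 2 H3K27ac-only peaks. These lay 99.6 kb downstream in an intron (4.76 and 5.55-fold) and 37.1 kb upstream (5.57 and 4.32-fold). BMPR2 held 16 H3K27ac but only 5 H3K4me3 peaks, and 12 of the 16 were H3K27ac-only. Its strongest H3K27ac-only peak was 3.98 kb upstream in an intron of LOC116422243 (7.95 and 5.13-fold), and another lay 110 kb upstream between genes (5.13 and 7.2-fold). BMPR2 was the nearest TSS for 1 of the 12, in its own intron 144 kb downstream.

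**Figure D4:**
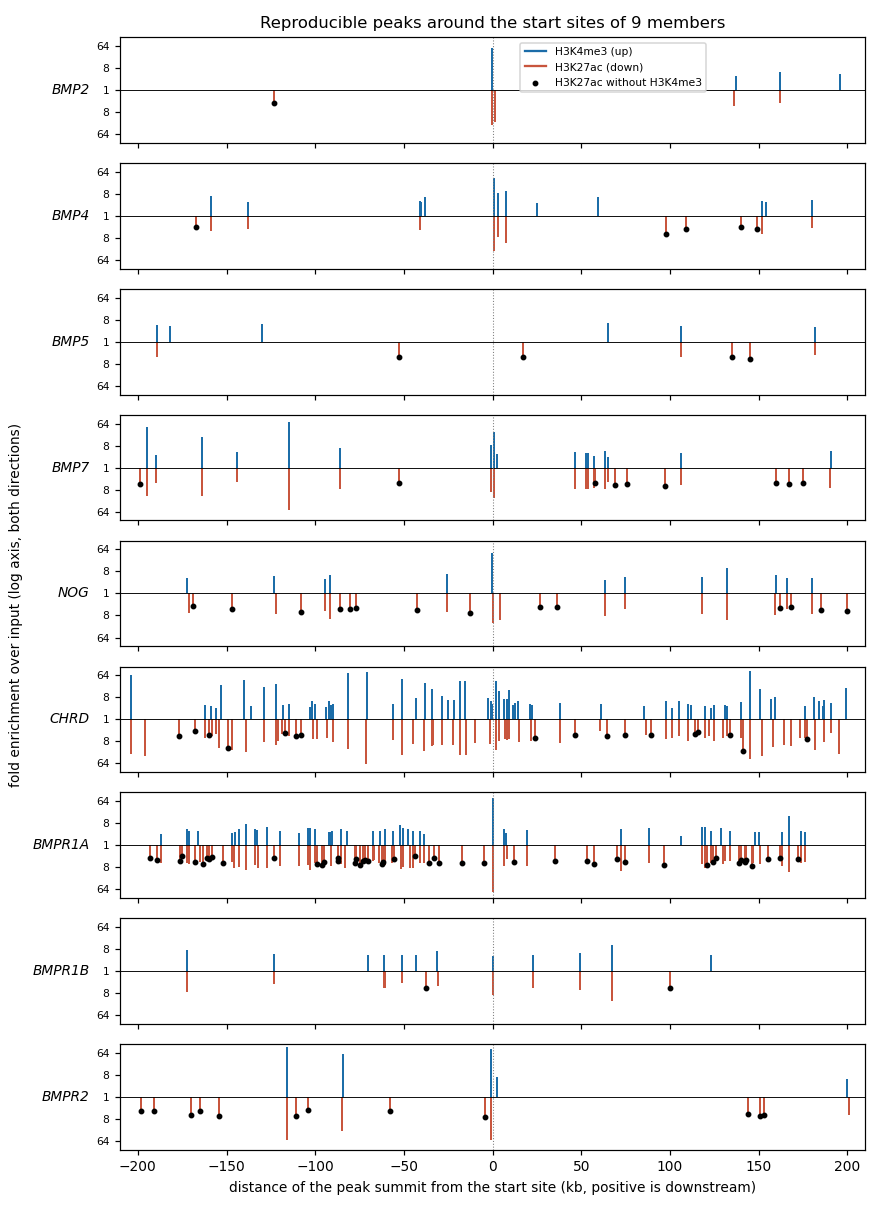
Reproducible peaks in the 200 kb on either side of each member's TSS, placed by summit at its distance in kb (negative is upstream), with mean fold enrichment on log axes, H3K4me3 upward, H3K27ac downward and H3K27ac-only peaks tipped with a black dot. BMP2 and BMP5 show few peaks, CHRD and BMPR1A show peaks across the whole window, and all starts but that of BMP5 carry a peak of both marks at or beside 0.

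**Figure D5:**
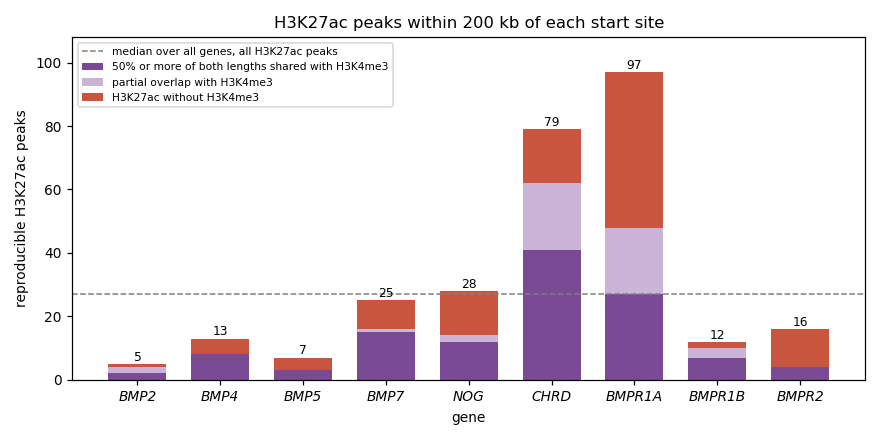
Number of reproducible H3K27ac peaks within 200 kb of each TSS, split by overlap with H3K4me3, with the median over all genes (27) as a dashed line. The bars of CHRD (79) and BMPR1A (97) stand far above the line, NOG (28) is next to it and the other members are below it.

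Other genes of the pathway were taken from a list of 49, of which 44 had a model and 33 were expressed over 1 TPM in all libraries. This was 75.0%, against 75.3% of all genes with a symbol. H3K4me3 was within 1 kb of the TSS for 41 of the 44 (93.2%) and H3K27ac for 42 (95.5%), against 83.1% and 85.9% of models with a symbol. The median of the listed genes was 17.2 TPM.

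Few other ligands were expressed. Of 6 with a model only BMP6 passed, at 3.24, 6.47 and 5.08 TPM (4.93 ± 1.62, SD, n = 3). The growth and differentiation factors, known for joints and neural patterning, were low, with GDF6 at 1.01 ± 0.586 TPM (SD, n = 3), GDF5 at 0.62 ± 0.245 and GDF7 at 0.62 ± 0.0273. BMP15 stood at 0.141 TPM and BMP10 had 0 counts in all 3 libraries, which allows up to 3 counts in each. GDF5, GDF6 and GDF7 nonetheless had both marks at the TSS, with H3K4me3 between 18.6 and 22.5-fold.

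All 4 of the other receptors were expressed. The type I receptor ACVR1 gave 15.8, 20.3 and 17.6 TPM (17.9 ± 2.25, SD, n = 3), although neither mark was within 1 kb of its annotated TSS. The type II receptors ACVR2A and ACVR2B gave 16.4 ± 2.55 and 10.0 ± 2.03 TPM (SD, n = 3). The co-receptors were all expressed too, with ENG at 38.8 ± 7.74, RGMB at 35.9 ± 3.83 and RGMA at 32.1 ± 8.91 TPM (SD, n = 3).

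Of 17 other antagonists and modulators with a model, 11 were expressed. FSTL1, a secreted follistatin-like protein, gave 289 ± 91.0 TPM, BMP1, a protease that cleaves chordin, gave 94.8 ± 19.2, and SOSTDC1, an antagonist known from tooth development, gave 92.7 ± 12.3 (SD, n = 3). Each of these was above every member, the highest of which was BMP7 at 26.5. CHRDL2 (0.924 TPM), CER1 (0.423), VWC2 (0.323) and DAND5 (0.128) were below 1 TPM.

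Inside the cell all 6 SMADs were expressed, led by SMAD1 (32.4 ± 4.69), SMAD4 (31.6 ± 6.04) and SMAD6 (30.1 ± 3.85 TPM, SD, n = 3). The 10 early targets were also all expressed, with H3K4me3 and H3K27ac at the TSS in 10 of 10. Of all genes with a symbol 75.3% were expressed, and 82.1% of models with a symbol had both marks. SMAD6, SMAD7 and BAMBI are among these targets and are also counted with the SMADs or the modulators. ID1, ID2 and ID3, which inhibit differentiation factors, gave 170 ± 33.8, 103 ± 10.7 and 103 ± 13.2 TPM (SD, n = 3). Of the list, SMAD7, an inhibitory SMAD, had the strongest start, with a mean H3K4me3 enrichment of 110-fold at 14.4 ± 2.65 TPM.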

How the data were processed

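For ChIP-seq the authors trimmed reads with cutadapt (1.9.1), aligned them to their dunnart assembly with Bowtie2 (2.3.5.1), filtered with SAMtools (1.9) and Picard (2.23.1) and called peaks per replicate with MACS2 (2.1.1). Each deposited peak carries its fold over input DNA, which is a ratio, with its p-value and q-value as −log10. Deposited RNA counts per gene, not normalized, came from Trimmomatic (0.39), HISAT2 (2.21) and reverse-stranded featureCounts (Subread 2.0.1) over models lifted from the Tasmanian devil with Liftoff (1.0).

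TPM was computed here from counts and summed exon length. Counts of 11 genes on 2 broken lines were not used. Peaks at q under 0.05 were paired between replicates, and distances run from the edge of the replicate 1 peak to the TSS, with 1 kb and 200 kb limits. Percentiles of distal peaks use peaks over 3 kb from any TSS. Library ratios use genes with 100 counts or more. Intervals from counting cover counting error only. No test was made, since there is 1 condition, and where nothing but pooling separates the libraries the SD measures only the spread between these pools. The FP names could not be tied to replicate numbers. Members and gene lists were chosen with earlier results of these data known. Named beside them were the 3 most abundant listed genes of each class, those under 1 TPM, the 3 strongest H3K27ac-only peaks and strongest distal H3K4me3 peak of a member, and genes starting in a window. The GDF group, ACVR2B, SMAD7, single cell type markers and other distal peaks were named after their values were seen. Python (3.11.15), pandas (2.3.3), numpy (2.4.6), matplotlib (3.10.9) and, for TMM factors, R (4.3.3) with edgeR (4.0.16) were used, and the scripts were tested on simulated data. Alternatives covered scaling, TPM filters, q limits, overlap, distance, window and each replicate left out. Some items named by these rules are not reported here. No sequence is printed, since no genome of this build was used here.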

Additional observations from a re-analysis of the deposited data

How the results depend on the processing

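Across 54 alternative TPM values of single members, 3 moved by more than 1 SD, all when the 20 most abundant genes and mitochondrial genes were left out of the total: BMP7 rose to 31.9, NOG to 8.81 and CHRD to 9.08 TPM, and the median of members from 8.33 to 10.0. Every member rose in that setting, BMP2 to 26.9 and BMPR1A to 18.8, and the 3 that moved had the lowest CVs. A mean with 1 of 3 libraries left out cannot move by more than 1 SD. Those alternatives therefore could not count as moved, although BMPR1A fell from 15.7 to 11.5 TPM without FP2. Leaving out 1 library gave a median of 7.71 to 9.23 TPM. Members with a highest library over 2 times the lowest were 4, and 2 after TMM scaling. Leaving out 1 library gave 0 to 2 (0 without FP2), a count that could only stay or fall with fewer libraries. That TMM and leave-one-out check was chosen after seeing the data. For peaks summed over the member windows (187 H3K4me3, 282 H3K27ac and 113 H3K27ac-only), a limit of q under 1e-05 gave 82, 194 and 117. The H3K27ac-only count did not fall with the others, since that class also depends on the limit set for H3K4me3. A window of 100 kb gave 94, 133 and 51, a window of 500 kb 459, 642 and 279, and the nearest TSS alone 76, 107 and 41, each by its own construction. One replicate alone gave 251 to 265, 325 to 348 and 115 to 138. Asking for a shared stretch of 50% of both paired peaks gave 144, 214 and 106. No paired analysis was possible because the results come from no test between groups. The libraries, 3 pools of 2 young, limit what can be said of differences under the SD, and the deposited peak lists do not give the depth of each ChIP library.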
